A study of Mus musculus with 48 samples.

Results

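The RNA co-precipitated with the TOB1-binding mutant of CNOT7 was compared with that co-precipitated with wild-type CNOT7, in 10 RNA immunoprecipitation (RIP) libraries out of 24 RIP libraries and 48 libraries in all. The libraries were chosen by their labels: 5 of FLAG-tagged CNOT7 E247A/Y260A and 5 of FLAG-tagged wild-type CNOT7, each numbered as replicate 6 to 10. Each RIP library had an input library made from a portion of the same lysate, 10 in all, and 5 RIP libraries from vector-only cells gave the background of the antibody. Every library came from 4T1 cells, a mouse mammary carcinoma line of BALB/cfC3H origin that grows as an epithelial culture. The E247A/Y260A and wild-type cells carried a FLAG-tagged human CNOT7 cDNA in a lentiviral vector, driven by the murine Pol2 promoter, on top of the endogenous mouse Cnot7 gene, whereas the vector cells carried no FLAG-tagged protein. RIP was native, without cross-linking, with the M2 anti-FLAG antibody. The labels do not say whether replicates were separate cultures, so every p-value below measures the spread between these libraries, which may be technical.

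CNOT7 is a deadenylase of the CCR4-NOT complex, the main cytoplasmic machinery that shortens poly(A) tails and so starts mRNA decay. It docks on the scaffold CNOT1 through one surface and on the antiproliferative BTG/TOB proteins through another. TOB1 also binds poly(A)-binding protein and CPEB proteins, which recognise the cytoplasmic polyadenylation element (CPE) of 3′UTRs, so TOB1 is a known route by which CCR4-NOT is brought to CPE-containing mRNAs. The E247A/Y260A substitutions were designed to remove TOB1 binding and to leave CNOT1 binding in place. The comparison thus asks whether the RNA association of CNOT7 needs TOB1 binding.

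The CPE is the sequence on which that route turns, so each gene was searched for it in its longest 3′UTR (GENCODE M21, build GRCm38, sense strand, motif TTTTAT). It was present in 9656 of 18365 genes of the count table with a 3′UTR (52.6%), with a median 3′UTR length of 1019 bases. A list of 149 genes that the study called CNOT7-associated was looked at separately. Of 146 of these genes with a 3′UTR, 97 held the motif (66.4%), with a median 3′UTR length of 1522.5 bases, so the list had both longer 3′UTRs and more of them with a CPE. The lines below show, for 4 of the 10 best counted genes of that list, for Cpeb3 and for Lrig1, the CPE nearest the end of the 3′UTR with its flanks. They are shown as examples of the element in genes whose RIP counts are given further on. Capitals mark the CPE, written as DNA, 5′ to 3′ on the sense strand.
Brinp3 (chr1:146902364-146902389, plus strand): tcatttgtaaTTTTATatgttccgtg
Tenm2 (chr11:36006760-36006785, minus strand): ttcatcgagtTTTTATattaatttta
Qtrtd1 (chr16:43861449-43861474, minus strand): aattgttttcTTTTATgttgtaaatg
Atp2b1 (chr10:99026059-99026084, plus strand): ccactgagccTTTTATtatttgtcta
Cpeb3 (chr19:37021508-37021533, minus strand): aataaattaaTTTTATgatgctaatt
Lrig1 (chr6:94604639-94604664, minus strand): aagtattactTTTTATgtacagagtt

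All 6 are 26-base windows of 3′UTRs. The Brinp3 3′UTR is short, 355 bases, and among 3′UTRs of similar length 25.6% held the motif. In the long 3′UTRs of Atp2b1 and Cpeb3, which held 7 and 6 copies, the share among 3′UTRs of similar length was 86.2% and 88.7%. Synj1, another gene of the list, held no copy in 2937 bases. A match describes the letters in the window and does not show that the site is bound.

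Library depth set what could be seen. Total counts were between 1712290 and 3785461 in the E247A/Y260A RIP libraries and between 1484364 and 3581483 in the wild-type ones, and the 13 most counted genes took 97.41% ± 0.713 (SD, n = 5) and 97.51% ± 0.544 of them. Outside these genes, the E247A/Y260A libraries held 80905, 71065, 35265, 104076 and 43974 counts for replicates 6 to 10, and the wild-type libraries 76969, 72517, 59942, 50116 and 50394. E247A/Y260A replicate 9 stood apart, with a count on 13676 genes against 5013 to 9481 in the other four and 5104 to 9190 in the wild-type libraries, and each main result is therefore also given without it. Replicate number 9 held the most genes with a count in the RIP of every construct of the series, with 8536 in vector, 14555 in M141R and 19194 in D40A, 2 further CNOT7 mutants. A gene with no count in one library could still have had up to 3 counts, a floor of 3.84 to 7.77 CPM (counts scaled to a common library total, with TMM factors) in the E247A/Y260A libraries and 4.24 to 6.36 CPM in the wild-type ones. Of 26899 genes in the table, 21538 had at most 3 counts in every one of the 10 libraries. One input library also stood apart, since the 13 genes took 1.595% of wild-type input replicate 10, against 10.78% to 19.05% in the other wild-type inputs.

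**Figure D1:**
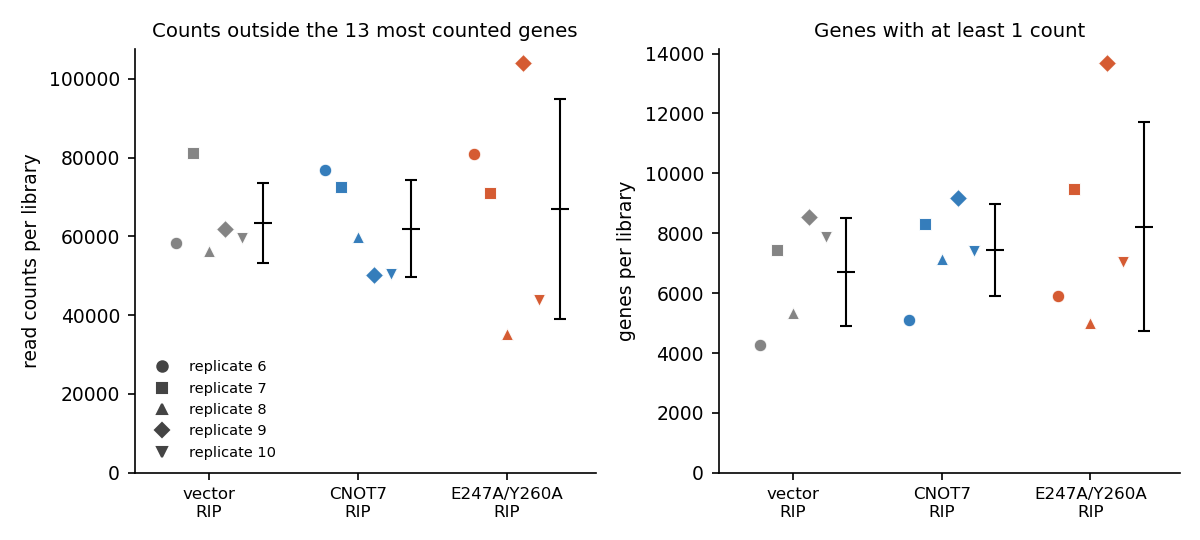
Counts outside the 13 most counted genes and genes with a count in each RIP library of E247A/Y260A, wild-type CNOT7 and vector cells; each point is a library, its shape the replicate number, and the black bar the mean ± SD (n = 5). E247A/Y260A replicate 9 is the highest library of the mutant in both panels, at 104076 counts and 13676 genes.

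Epithelial markers were present in every input library. The summed level of 13 of them was 21.13 to 33.9 CPM in E247A/Y260A cells and 9.686 to 28 CPM in wild-type cells. Fibroblast markers reached at most 3.559 CPM and adipocyte markers at most 0.6648 CPM, with no member of either list tested, whereas leukocyte markers summed to 11.94 to 18.91 and 13.41 to 28 CPM, most of it Csf1r (12 to 49 counts a library), with at most 3 counts of the defining marker Ptprc. In bulk libraries, fewer cells of a type and less RNA per cell cannot be told apart. In the RIP libraries the epithelial sum was 21.6, 20.62, 12.95, 62.78 and 20.48 CPM for E247A/Y260A and 11.31, 20.38, 8.879, 13.62 and 14.84 CPM for wild-type CNOT7. The highest value lay in E247A/Y260A replicate 9, and its part in the results below was not tested. Of the epithelial genes 6 were tested, 4 had a log2 fold change above 0 (66.7%, against 55.6% of all genes tested) and none an unadjusted p under 0.05 in edgeR, with a median of 0.85, or 0.10 without that library. The adhesion gene Cdh1, the best counted of them, had 8, 5, 1, 17 and 3 counts against 3, 5, 0, 4 and 0, a log2 fold change of 1.35 (unadjusted p = 0.0525, edgeR quasi-likelihood test), and 0.83 without that library. The tight junction gene Cldn7 had 0, 1, 0, 4 and 0 counts against 1, 1, 2, 0 and 1 (log2 fold change -0.10), and only 1 mutant count is left without that library, under the floor. Endothelial markers summed to 3.473 to 11.92 CPM in the inputs, and in the RIP libraries to 10.49 ± 6.976 CPM (SD, n = 5) with E247A/Y260A, 7.987 ± 4.811 without replicate 9, and 4.549 ± 3.685 with wild-type CNOT7, groups that overlapped. Of 6 such genes 2 were tested, both above 0 and neither at an unadjusted p under 0.05, with a median of 1.21, or 1.13 without replicate 9. The 10 libraries held 0 to 16 counts of these genes.

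The endogenous Cnot7 mRNA was low in every RIP library and did not separate the groups. It had 7, 6, 3, 6 and 3 counts in the E247A/Y260A libraries, 10, 7, 5, 3 and 3 in the wild-type ones, and 6, 9, 5, 5 and 2 in vector. The groups overlapped fully. The log2 CPM was 3.25 ± 0.18 (SD, n = 5) for E247A/Y260A and 3.34 ± 0.46 for wild-type CNOT7, a difference of -0.09 (two-sided exact permutation test, p = 0.698, adjusted over 2 tests 0.77). In the inputs it was 4.97 ± 0.55 and 4.69 ± 1.41, a difference of 0.29 (two-sided exact permutation test, p = 0.77, adjusted 0.77), and the smallest p these 5 against 5 libraries could give was 0.00794. Wild-type input counts ran from 142 down to 6, the lowest in replicate 10, and without that library the difference was -0.28. The transgene is a human cDNA, so mouse Cnot7 counts do not check its expression or the precipitation of the protein.

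No gene differed between the E247A/Y260A and wild-type RIP libraries after adjustment. In edgeR's quasi-likelihood test over 6931 genes with Benjamini-Hochberg adjustment, 0 were higher and 0 lower (0% of the genes tested), and the smallest adjusted p was 1. At an unadjusted p under 0.05, 165 genes were higher (2.38%) and 61 lower (0.88%) in E247A/Y260A, and the median log2 fold change was 0.13, with 55.6% of genes above 0. DESeq2 and limma voom also gave 0 adjusted calls, with 119 higher and 19 lower, and 167 higher and 73 lower before adjustment (p under 0.05). Groups that did not overlap at all were found for 10 genes higher (0.144%) and 11 lower (0.159%) in E247A/Y260A. The best counted of these 21 was 4930586N03Rik, with a mean of 5.5 counts a library.

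The excess of higher genes rested on 1 library. Without E247A/Y260A replicate 9, edgeR again called 0 genes in either direction of 5661 tested, and an unadjusted p under 0.05 was found for 69 genes on the higher and 82 on the lower side. The median log2 fold change was then -0.02. Leaving out replicate number 9 in every group, an alternative added after seeing the data, gave 0 adjusted calls, with 107 and 108 genes and a median of 0 over 7124 genes. Group medians between the constructs are therefore also given without that library, over the fewer genes that then passed the filter.

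The precision of the comparison depended on the count only up to a mean of about 20 counts. Among 507 genes with a mean of at least 20 counts over the 10 libraries, none reached an unadjusted p under 0.05, and log2 fold changes ran from -0.77 to 0.79. For 187 of them (36.9%) the 95% interval lay within 2-fold in either direction, and for 494 within 4-fold. Higher counts did not narrow the intervals further, since the median standard error was 0.459 at a mean of at least 20 counts and 0.5 at a mean of at least 100, so there the spread between libraries set the limit. The lowest of these values belonged to Hhat, which encodes the acyltransferase of hedgehog ligands, with 37, 22, 7, 20 and 8 counts in E247A/Y260A against 57, 64, 13, 10 and 14 in wild-type CNOT7. The highest belonged to ENSMUSG00000098178, annotated as Gm42418 (chr17:39846958-39848788, GRCm38), with 766, 639, 238, 5425 and 1075 against 446, 1237, 1062, 329 and 884 counts. Both genes had overlapping groups, and the second was highest in replicate 9, its log2 fold change being -0.15 without that library. Over all 6931 genes, the interval lay within 2-fold for 276 and within 4-fold for 2161, so for most genes the interval reached beyond 4-fold in at least one direction.

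The 13 most counted genes took almost the same share in both constructs and in vector. ENSMUSG00000045999, for which the annotation used here gives no name, took 60.8% ± 2.97 of all counts with E247A/Y260A, 61.3% ± 2.69 with wild-type CNOT7 and 62.1% ± 3.06 with vector (SD, n = 5 each). Filip1l, a filamin-interacting gene, took 10.4% ± 1.84, 10.3% ± 0.794 and 10.4% ± 1.58, and Jarid2, a partner of Polycomb repressive complex, 6.88% ± 1.04, 6.77% ± 0.926 and 6.61% ± 0.816. Since vector cells hold no FLAG-tagged protein, these shares were at the level of the antibody background. Of the other ten, Tmtc2 took 4.06%, 3.83% and 3.75%, the receptor gene Fgfr2 0.548%, 0.54% and 0.5%, and the transcription factor gene Atf2 0.268%, 0.27% and 0.234%. Fold changes between the constructs were within 0.1 on the log2 scale for all 13 genes, with 95% intervals of about 1 or more on either side (for Kpna1, -1.07 to 1.25 around 0.09).

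**Figure D2:**
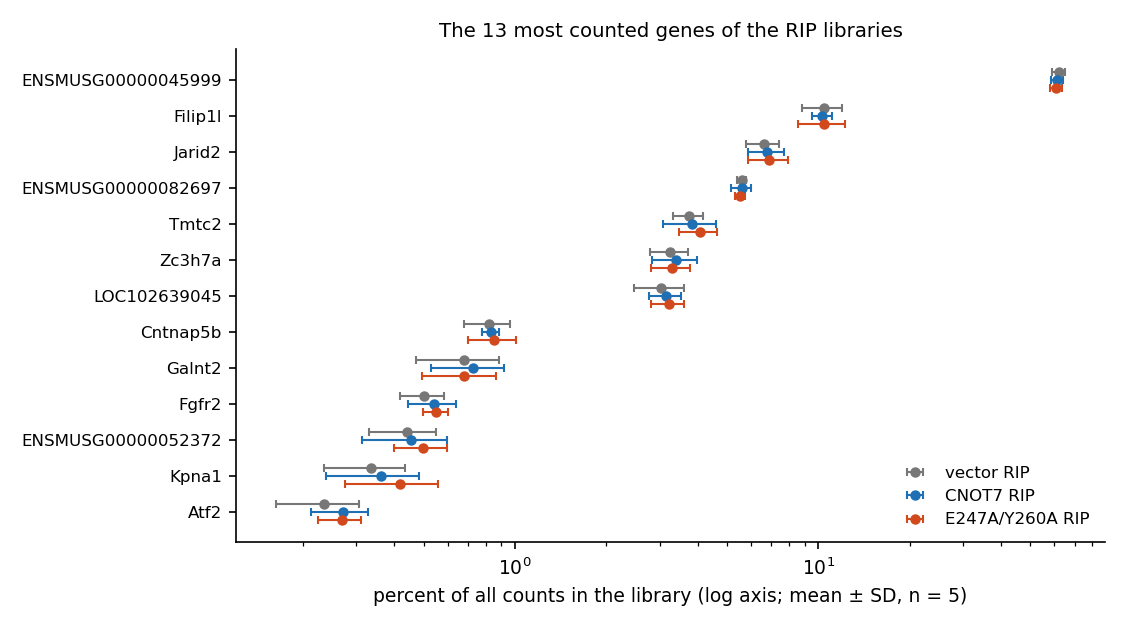
Percent of all counts of a RIP library (log axis) on each of the 13 most counted genes, for E247A/Y260A, wild-type CNOT7 and vector. Each point is the mean of a group and its bar the SD (n = 5), in the colour of the group. The 3 groups overlap at every gene, from 60.8% for ENSMUSG00000045999 to 0.268% for Atf2 with E247A/Y260A.

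Against the antibody background, neither construct called a gene in this test. In edgeR, wild-type CNOT7 RIP against vector RIP gave 0 adjusted calls (0%), with 152 genes higher (2.19%) and 81 lower (1.17%) before adjustment (p under 0.05) and 10 higher (0.144%) and 10 lower (0.144%) with groups that did not overlap. E247A/Y260A RIP against the same vector libraries gave 0 adjusted calls (0%), with 263 higher (3.79%) and 80 lower (1.15%), and 18 higher (0.26%) and 3 lower (0.0433%) without overlap. Both comparisons share the vector libraries, so they are set side by side only. The medians over all genes were -0.02 for wild-type CNOT7 and 0.17 for E247A/Y260A, and -0.03 for E247A/Y260A without replicate 9, with 89 higher and 84 lower. Scaling by library size in place of TMM moved these medians to 0.21 and 0.42, with 239 higher and 42 lower, and 438 higher and 32 lower, before adjustment, whereas the median between the constructs moved only to 0.15. Without vector replicate 6, wild-type CNOT7 had 66 higher and 79 lower genes over vector, and E247A/Y260A 143 and 55.

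Dividing by the matched inputs did not bring out a difference either. The ratio of RIP to input of the same lysate was compared between the constructs in edgeR with the lysate as a block, and 0 genes were higher and 0 lower (0%). Before adjustment, 87 genes were higher (1.26%) and 55 lower (0.794%) in E247A/Y260A at p under 0.05, with 16 higher (0.231%) and 18 lower (0.26%) whose lysates did not overlap, and a median log2 difference of 0.03, with 51.6% of genes above 0. DESeq2 and limma voom gave 0 adjusted calls, with 65 higher and 38 lower, and 151 higher and 94 lower before adjustment (p under 0.05). Without lysate 9 of E247A/Y260A, edgeR gave 0 adjusted calls over 6825 genes, with 61 higher and 103 lower and a median of -0.15. Among the 507 well-counted genes the interval of the ratio lay within 2-fold for 132 (26%) and within 4-fold for 467. The inputs themselves differed at 0 genes (0%), with 27 higher (0.39%) and 12 lower (0.173%) before adjustment (p under 0.05), 10 higher (0.144%) and 7 lower (0.101%) without overlap, and a median of 0.04. These input counts ran from 45 to 122 higher and 15 to 52 lower with 1 library left out, and limma voom gave 130 and 84.

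Genes of the CCR4-NOT complex were low in the RIP libraries of both constructs. Of 12 subunit genes, 7 had at most 3 counts in every library and 7 passed the filter over all 48 libraries. Of these 7, 3 had a log2 fold change above 0 (42.9%, against 55.6% of all genes tested), none reached an unadjusted p under 0.05, and the median was -0.03 with and without replicate 9, or 0.06 when 1 gene at or under the floor in both groups was left out. Their summed level was 25.8 ± 8.15 CPM (SD, n = 5) for E247A/Y260A, 28.52 ± 4.159 for wild-type CNOT7 and 21.75 ± 5.968 for vector, and the groups overlapped. Cnot1, the scaffold, had 3, 3, 2, 5 and 4 counts against 1, 6, 2, 4 and 2, a log2 fold change of 0.15 with a 95% interval of -1.07 to 1.36. The interval holds a more than 2-fold change in either direction, so neither a change nor its absence was shown.

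The BTG/TOB genes, whose proteins link CNOT7 to RNA-binding proteins, were at the floor. All 6 had at most 3 counts in every library, and Tob1 had 1 count in total, in E247A/Y260A replicate 9. Among 22 genes of RNA-binding adaptors that occur in the table, 11 were tested, 5 were above 0 (45.5%), none reached an unadjusted p under 0.05 and the median was 0, or 0.39 when 3 genes at or under the floor in both groups were left out. Without replicate 9 the median was -0.15, with 28.6% above 0. Cpeb3, the CPE-binding protein gene with its own CPEs shown above, was the best counted, with 31, 23, 5, 17 and 6 counts in E247A/Y260A, 22, 15, 26, 13 and 11 in wild-type CNOT7, and 19, 28, 20, 13 and 18 in vector. The 3 groups overlapped, and the log2 fold change was -0.21 with an interval of -1.16 to 0.75. Pabpc1, encoding the main cytoplasmic poly(A)-binding protein, had a log2 fold change of -0.35, or -0.94 without replicate 9, and Tnrc6c, encoding a scaffold of the microRNA silencing complex, of 0.74, or 0.54.

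The cleavage and polyadenylation factors gave 1 gene on each side at an unadjusted p under 0.05, of 5 tested, where 2.38% of all genes tested were higher and 0.88% lower. Fip1l1 had 3, 1, 0, 2 and 0 counts in E247A/Y260A and 4, 4, 2, 3 and 2 in wild-type CNOT7, a log2 fold change of -1.38 (interval -2.87 to 0.04, unadjusted p = 0.0478, adjusted p = 1), and -1.55 without replicate 9. Cpsf2 had 4 counts in E247A/Y260A, 3 of them in replicate 9, and 0 in wild-type CNOT7. Without replicate 9 no gene of the group was higher at that p. These are counts near the floor of single libraries. The median of the 5 genes was -0.74 against 0.13 for all genes tested, and -1.06 against 0.16 with genes at 0 in a group set to their bound (3 counts over the group) and genes at or under it in both left out. It was -1.12 without replicate 9.

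The mRNAs of decay enzymes and the short-lived mRNAs showed no adjusted call. Of the decay genes 5 were tested with a median of -0.11 and none at an unadjusted p under 0.05, whereas without replicate 9 the median was -1.12, over 3 genes near the floor. Pan3, encoding a subunit of the PAN2-PAN3 deadenylase, had 0, 1, 0, 9 and 0 counts in E247A/Y260A and 6, 1, 1, 1 and 1 in wild-type CNOT7 (log2 fold change -0.11). Without replicate 9 its mutant total of 1 count is under the floor, so no fold is given, although its unadjusted p was then 0.0317. Most of its mutant counts lay in replicate 9 and most of its wild-type counts in replicate 6. Smg6, the nonsense-mediated decay endonuclease gene, had 4, 13, 1, 9 and 2 counts against 1, 4, 2, 3 and 3 (log2 fold change 1.02, unadjusted p = 0.0872). Of the short-lived mRNAs 13 were tested, 5 were above 0 (38.5%) and the median was -0.04, but 58.3% were above 0 with a median of 0.31 without replicate 9. Ccnd1, the cyclin D1 gene, was the only one of them at an unadjusted p under 0.05 (2.38% of all genes tested were higher), with 3, 2, 0, 4 and 2 counts against 1, 1, 0, 0 and 0. The wild-type total of 2 counts is within the floor, so no fold is given. Vector libraries held 0, 0, 3, 3 and 3 counts of Ccnd1, and the mutant and vector overlapped.

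Abundant housekeeping RNAs did not separate the groups. Of 74 ribosomal protein genes 45 were tested, 24 were above 0 (53.3%) and the median was 0.17, or -0.13 without replicate 9. Rps2, the best counted, had 44, 46, 20, 54 and 58 counts in E247A/Y260A, 39, 71, 25, 28 and 64 in wild-type CNOT7, and 32, 46, 39, 51 and 125 in vector (log2 fold change -0.06). Rpl4 was the only one of the 45 at an unadjusted p under 0.05 (0.88% of all genes tested were lower), with 2, 0, 0, 2 and 1 counts against 3, 8, 1, 2 and 2 (log2 fold change -1.68, unadjusted p = 0.0438, adjusted p = 1). Rmrp, the RNA of RNase MRP, had 27, 22, 12, 27 and 20 against 22, 48, 11, 1 and 26 counts (log2 fold change -0.01).

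The list of 149 genes that the study called CNOT7-associated was followed, with its own limit. It was chosen in part for enrichment in wild-type RIP over input and over vector RIP. A level in these libraries is therefore not independent evidence. A fall in the mutant against the same wild-type RIP libraries would be favoured by that choice. Of the 149 genes, 68 had at most 3 counts in every one of the 10 libraries and 56 passed the filter. Of those 56, 29 had a log2 fold change above 0 (51.8%, against 55.6% of all genes tested), with a median of 0.01 against 0.13, and an unadjusted p under 0.05 was found for 0 on the higher and 1 on the lower side. The latter was Ftsj1, a tRNA methyltransferase gene, with 0 counts in all 5 E247A/Y260A libraries and 1, 1, 0, 2 and 1 in the wild-type ones. The summed counts of the list were 110, 298, 84, 700 and 131 for E247A/Y260A and 105, 293, 215, 336 and 242 for wild-type CNOT7. The summed level was 148.5, 472.7, 217.6, 896.8 and 298.1 CPM against 148.4, 459.3, 381.8, 653.8 and 513.1 CPM. In vector it was 80.28, 257.8, 119.1, 337.6 and 221.2 CPM. Replicate 9 was the highest library of each group, and all 3 groups overlapped. At each replicate number, the level was higher in both constructs than in the same-numbered vector library. The choice of the list favours this difference, and it was not tested.

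The median of this list moved with single libraries, most with replicate 9 of the mutant. Without it, 40 of the genes were tested, 20% of them had a log2 fold change above 0 and the median was -0.48, against 47.2% and -0.02 for all genes. Leaving out any other 1 of the 10 libraries, which also left 40 genes, gave medians of -0.28 to 0.26. Leaving out replicate number 9 in every group, an alternative added after seeing the data, gave -0.36 over 58 genes. In the ratio to input the median was -0.98 with all lysates, against 0.03 for all genes, -1.45 without E247A/Y260A lysate 9, and -0.69 without wild-type lysate 10. At an unadjusted p under 0.05 the ratio of 0 genes was higher (1.26% of all genes tested) and that of 2 lower (0.794% of all), Ftsj1 and Nfyc, the gene of a CCAAT-binding factor subunit. In the inputs the median was 0.72, and the summed level was 241.5, 292.2, 324.1, 308.6 and 363.5 CPM in E247A/Y260A and 193.4, 291.2, 231.3, 200.4 and 29.25 CPM in wild-type cells. The mutant input was the higher one at each of the 5 replicate numbers, by little in replicate 7 and most in replicate 10, and every wild-type input but the second was below all of the mutant inputs. The lower ratio thus went with a higher level of the list in the mutant inputs, and which of them carried it was not tested. Because the list was chosen in part for enrichment over input, low wild-type inputs and a lower ratio in the mutant would be favoured by that choice.

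Members of the list with the most counts overlapped between the constructs. Brinp3, a neural gene induced by BMP and retinoic acid, with a CPE in its short 3′UTR, had 12, 17, 8, 23 and 2 counts in E247A/Y260A, 14, 14, 20, 12 and 9 in wild-type CNOT7, and 9, 13, 9, 25 and 0 in vector (log2 fold change -0.26, interval -1.47 to 0.94). Tenm2, encoding a teneurin adhesion protein, had 2, 9, 7, 41 and 5 against 1, 11, 3, 12 and 3 counts. Its log2 fold change of 0.92 fell to 0.05 without replicate 9. Polr1e, of RNA polymerase I, had 10, 10, 7, 3 and 8 against 8, 11, 9, 9 and 6 counts (log2 fold change -0.14, and 0.11 without replicate 9). Sorbs2, a cytoskeletal adaptor gene, went from 0.02 to -0.86, the scaffold gene Magi1 from -0.02 to -0.80, and Atp2b1, a plasma membrane calcium pump gene, from 0.34 to -0.42 when that library was left out. Atp2b1 had 2, 2, 1, 13 and 4 against 2, 4, 4, 4 and 2 counts. Qtrtd1, of the tRNA queuosine pathway, had 8, 10, 4, 5 and 4 against 6, 11, 5, 7 and 8 counts (log2 fold change -0.30, and -0.16 without replicate 9). Tmcc3, with 5, 5, 0, 14 and 0 counts in E247A/Y260A, 2, 7, 1, 4 and 3 in wild-type CNOT7 and 0, 0, 2, 1 and 0 in vector, had a log2 fold change of 0.29 between the constructs, or -0.49 without replicate 9. The vector total of 3 counts is at the floor, so no fold over vector is given.

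**Figure D3:**
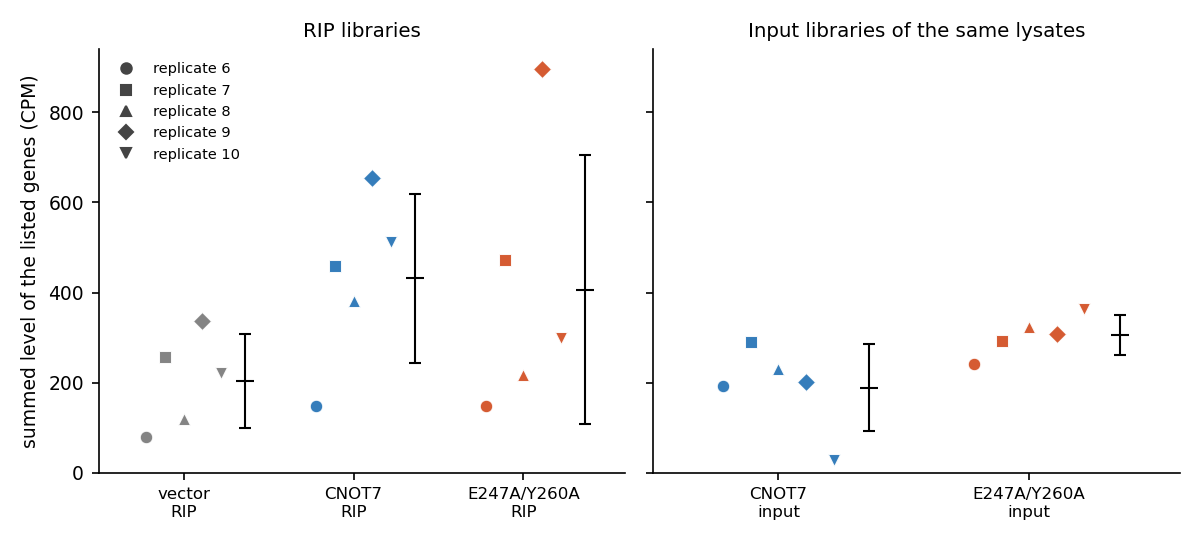
Summed CPM of the 149 genes of the study's list in each RIP and input library of the constructs and in vector RIP; points are the libraries, their shape the replicate number, and the black bars mean ± SD (n = 5). The RIP groups overlap, with E247A/Y260A replicate 9 highest at 896.8 CPM, and wild-type input replicate 10 is lowest at 29.25 CPM.

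The list was also split by its sequence. Within it, 71 genes were reported to hold a CPE, a Nanos response element and a binding element for the cleavage and polyadenylation factor CPSF. Of these, 30 were tested with a median of -0.04, or -0.47 over 22 genes without replicate 9, and for the other 78 genes 26 were tested with a median of 0.09, or -0.76 over 18 genes. The medians over vector were 1.39 in the 71 genes and 1.17 in the other 78 for wild-type CNOT7, against -0.02 for all genes (46.9% above 0), and 1.104 and 0.84 for E247A/Y260A, against 0.17. In the fit without E247A/Y260A replicate 9, they were 1.28 and 1.02 for wild-type CNOT7 and 0.78 and 0.22 for E247A/Y260A, over 22 and 18 tested genes. For the whole list, that fit gave 1.16 and 0.42 over 40 genes, against -0.01 and -0.03 for all genes. It kept replicate 9 of wild-type CNOT7 and of vector, each the highest of its group for the list (653.8 and 337.6 CPM). The highest library was thus left out for the mutant alone, which favours a lower median for the mutant. List medians over vector without number 9 in every group are not given, and the part of this choice in the gap was not tested. Both constructs were set against the same vector libraries, and wild-type and vector RIP both took part in the choice of the list. Medians over vector are thus favoured by that choice for both constructs. Summed over the 71 genes, the level was 215.2 ± 146.5 CPM (SD, n = 5) for E247A/Y260A, 154.3 ± 62.51 without replicate 9, 226.2 ± 107.7 for wild-type CNOT7 and 109.9 ± 55.14 for vector, and the libraries of these groups overlapped.

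Over the whole table, the direction of genes with a CPE depended on replicate 9 of the mutant. Of 3238 tested genes with the motif, 62.1% had a log2 fold change above 0 and the median was 0.29, against 53.2% and 0.06 for 2066 tested genes with a 3′UTR that lacked it. Without replicate 9 the shares were 44.5% and 47.5% and the medians -0.09 and -0.03. At an unadjusted p under 0.05, 98 genes with a CPE were higher and 30 lower with all libraries, against 49 and 16 of those without it and 2.38% and 0.88% of all genes tested. Without replicate 9 these were 34 and 42 of 2497 tested genes with the motif, 19 and 28 of 1691 without it, and 69 and 82 of all 5661. The length of the 3′UTR and the motif were not separated. Genes that the study called changed by Cnot7 overexpression or knockdown on arrays were split by the sign of their statistic. The paper describes those under 0 as raised by knockdown and lowered by overexpression. The 164 and 111 tested genes with a value under and over 0 had medians of 0.39 and 0.11, or -0.01 and -0.20 without replicate 9.

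Single genes were named by rank or, where said, after their values were seen. By the rule on the ratio, 1 gene qualified. ENSMUSG00000100113, a lincRNA gene opposite Phlda1 (chr10:111506575-111507662, minus strand, GRCm38), had 55, 18, 15, 15 and 20 RIP counts in E247A/Y260A and 56, 21, 9, 3 and 26 in wild-type CNOT7, and its log2 ratio to input was 0.14, 0.52, 0.91, 0.48 and 0.36 against -0.14, -0.03, -0.21, -1.11 and -0.46. All mutant lysates lay above all wild-type ones. The difference was 0.81 (interval 0.02 to 1.61, unadjusted p = 0.0459, adjusted p = 1, edgeR), and 0.80 without lysate 9 (unadjusted p = 0.0666) or 0.62 without wild-type lysate 10 (unadjusted p = 0.0959). The RIP libraries alone differed by 0.12 (unadjusted p = 0.847) and the inputs by -0.56. No gene met the like rule on the RIP libraries.

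The following genes were chosen after their values were seen. Lrig1, a negative regulator of ERBB receptors (chr6:94604529-94700158, minus strand, with Slc25a26 opposite), had 5, 4, 2, 17 and 5 counts in E247A/Y260A, 1, 2, 0, 1 and 1 in wild-type CNOT7, and 0, 2, 1, 5 and 4 in vector. The mutant libraries lay above the wild-type ones in CPM and overlapped with vector. The log2 fold change was 2.56 (interval 1.00 to 4.24, unadjusted p = 0.000859, adjusted p = 1), 2.03 without replicate 9 (unadjusted p = 0.0129) and 2.15 in the ratio to input (unadjusted p = 0.0226). Its log2 fold changes over vector were 1.28 for the mutant (unadjusted p = 0.0492) and -1.29 for wild-type CNOT7. Spdya, an activator of cyclin-dependent kinases, had 1, 1, 1, 2 and 0 counts in E247A/Y260A, 2, 4, 5, 5 and 4 in wild-type CNOT7, and 2, 4, 2, 1 and 4 in vector. The mutant was the lower group without overlap, with a log2 fold change of -2.03 (interval -3.40 to -0.78, unadjusted p = 0.00151, adjusted p = 1). Without replicate 9 its mutant total is at the floor of 3 counts, so no fold is given.

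4930586N03Rik, a transcript opposite Zfp322a (chr13:23313525-23385799, plus strand), had 5, 4, 1, 5 and 1 counts in E247A/Y260A, 7, 5, 8, 8 and 11 in wild-type CNOT7, and 7, 3, 2, 4 and 9 in vector. All mutant libraries lay below all wild-type ones in CPM and overlapped with vector, with a log2 fold change of -1.41 (unadjusted p = 0.0132, adjusted p = 1). In the ratio the difference was -2.14 (unadjusted p = 0.00224), and -1.48 without wild-type lysate 10, whose input held 2 counts. Atp2a2, the sarcoplasmic calcium pump gene, was the best counted gene whose lysates did not overlap. Its log2 ratio to input was 0.12, -0.13, 0.20, 0.18 and -0.55 in E247A/Y260A and 0.49, 0.34, 0.43, 0.29 and 2.19 in wild-type CNOT7, with a difference of -0.70 (interval -1.51 to 0.10, unadjusted p = 0.0877). The highest of these, 2.19, came again from wild-type lysate 10.

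**Figure D4:**
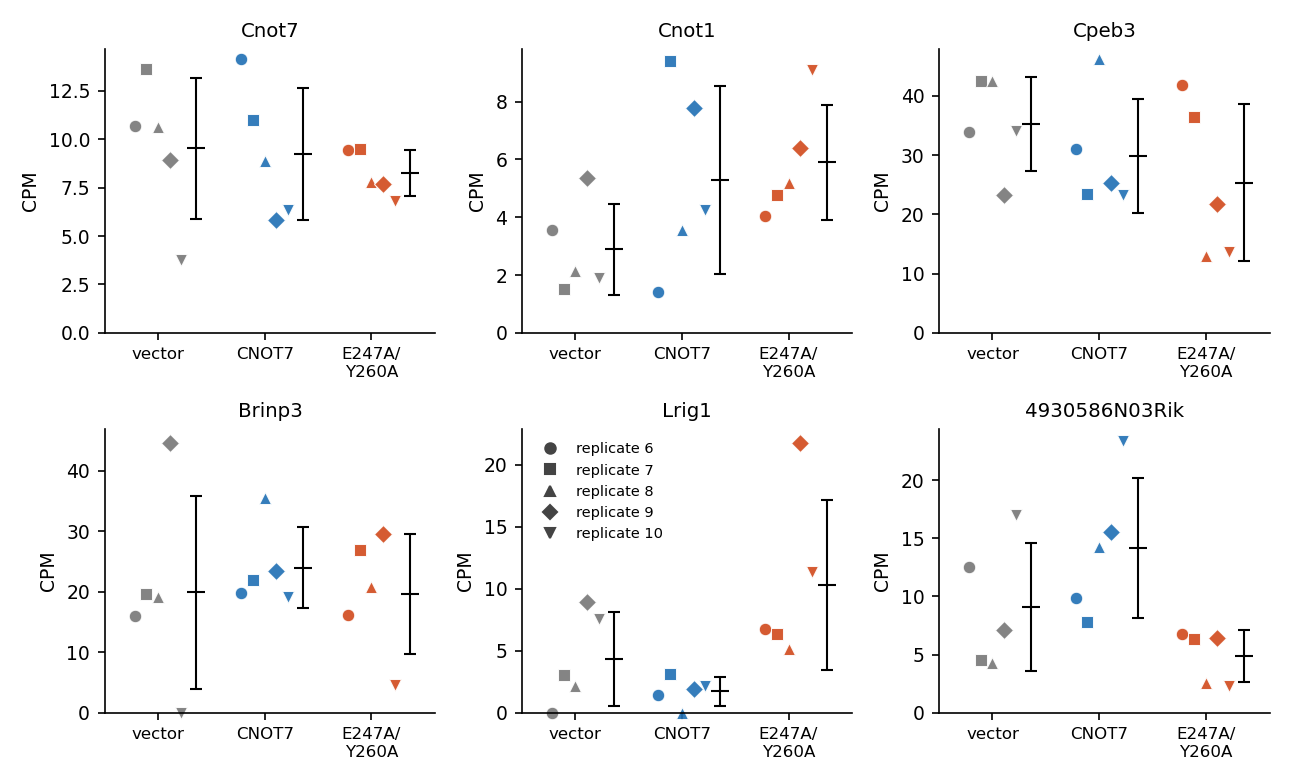
CPM of Cnot7, Cnot1, Cpeb3, Brinp3, Lrig1 and 4930586N03Rik in the E247A/Y260A, wild-type CNOT7 and vector RIP libraries; points are the libraries, their shape the replicate number, and the black bars mean ± SD (n = 5). The constructs overlap for the first 4 genes and do not for Lrig1 and 4930586N03Rik, which were chosen for that after their values were seen.

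At an unadjusted p under 0.05 in edgeR, 2.38% of all genes tested were higher and 0.88% lower. Among 1325 genes with a mean of at least 5 counts over the 10 libraries, 2 were higher and 2 lower at that p. Tbc1d8 and 9030624J02Rik were the higher ones in E247A/Y260A, and 4930586N03Rik and ENSMUSG00000037531, annotated as Mrpl47, the lower ones. Tbc1d8, encoding a Rab GTPase-activating protein, had 6, 6, 8, 9 and 7 counts against 2, 1, 3, 4 and 5 (log2 fold change 1.23, unadjusted p = 0.0178), and 1.26 without replicate 9. 9030624J02Rik, annotated as Vps35l of the retriever complex, had 12, 10, 2, 6 and 7 against 4, 3, 2, 3 and 2 counts (1.34 on the log2 scale, unadjusted p = 0.017). Mrpl47, of the mitochondrial ribosome, had 7, 4, 4, 5 and 2 against 12, 10, 13, 7 and 2 counts (-1.003 on the log2 scale, unadjusted p = 0.0419). Each of these 3 genes overlapped between the groups and had an adjusted p of 1. Tbc1d8 lies opposite Rpl31, 9030624J02Rik opposite Knop1 and Mrpl47 opposite Ndufb5, and reads of such pairs may be mixed because the strand setting of the counting is not stated.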

How the data were processed

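RNA of 4T1 lysates was sequenced before and after anti-FLAG precipitation with a directional kit. The authors deposited 1 table of raw counts per gene, with no normalization. Their methods and notes name BWA, HTSeq and mm9, without versions, and the strand setting of the counting is not given in the sources used here. Gene identifiers reach later annotations. GENCODE M21 (GRCm38) matched 26555 of 26899 identifiers, with 344 unmatched, and was used for names, coordinates and 3′UTRs only.

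Counts were filtered with filterByExpr, scaled by TMM and tested in edgeR 4.0.16 (R 4.3.3) with 1 quasi-likelihood fit over all 48 libraries and Benjamini-Hochberg adjustment, threshold 0.05. The model was group, or lysate plus RIP effect per construct for the ratio to input. Log2 CPM used a prior count of 2. DESeq2 1.42.0, limma 3.58.1, other scalings, filters and left-out libraries were alternatives. Intervals are 95% and rest on the spread between libraries, and floors of 3 counts cover counting error only. No 2 replicates looked like 1 library deposited again, since chi-square over its degrees of freedom was 6.855 at the lowest. Replicate numbers paired the inputs of the constructs, with same-numbered deviations correlating at 0.172 to 0.511 in all 5 pairs. Scripts were tested on simulated data. Named genes were those past the adjusted threshold, those with groups that did not overlap, an unadjusted p under 0.05 and a mean of at least 10 counts in the higher group, the 13 most counted, the 10 best counted of the study's list, and up to 4 per gene list. The libraries, genes and lists were chosen with earlier results of these data known. Columns of per-sample values not used numbered 0.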

Additional observations from a re-analysis of the deposited data

Results flagged for a closer look

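Of 116 groups of 5 libraries that were checked, 9 held a library whose gap to its nearest neighbour exceeded 0.71 of the range of the group (Dixon's 95% value), where chance gives about 1 in 20. In E247A/Y260A RIP replicate 9, the summed level of epithelial markers was the highest of its group, at 62.78 CPM. The same library held the highest level of ENSMUSG00000098178, at 6951 CPM. It also gave the lowest share of LOC102639045, at 2.513% of its counts. In E247A/Y260A RIP replicate 10, Tmtc2 took the highest share, at 5.071% of counts. That library also had the highest level of Rps2, at 132 CPM. In wild-type CNOT7 RIP replicate 8, Brinp3 was the highest, at 35.51 CPM. In wild-type CNOT7 RIP replicate 7, Rpl4 was the highest, at 12.54 CPM. In wild-type CNOT7 RIP replicate 10, Stk25, a kinase gene, was the lowest, at 0 CPM, where the other four libraries held 2 or 3 counts. Wild-type CNOT7 input replicate 7 held the most counts outside the 13 most counted genes, 737629.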

How the results depend on the processing

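Adjusted calls between the RIP libraries of the constructs stayed at 0 in both directions under every alternative run, and so did higher calls in the other 4 comparisons. Unadjusted counts at p under 0.05 were 165 higher and 61 lower for the RIP, 87 and 55 for the ratio, 27 and 12 for the inputs, 152 and 81 for wild-type CNOT7 over vector, and 263 and 80 for E247A/Y260A over vector. In the ratio, 1 gene, Spata5, was lower (log2 difference -2.85, adjusted p = 0.0112) without replicate number 9 in every group, a choice made after seeing the data. With no filter on low counts, 48 genes were lower in the inputs, and 2 (Rn7s1 and Rn7s2, with 36 and 35 counts in vector RIP replicate 7) were lower in each construct than in vector. Leaving out 1 library gave 0 to 2 lower input genes, Mfsd11 and Myo1h, with 172 and 132 counts in wild-type input replicate 10. The Cnot7 difference ran from -0.22 to 0.062 in the RIP with 1 library left out, turning direction without wild-type replicate 6, and from -0.28 to 0.67 in the inputs, turning direction without wild-type replicate 10. The cause was not tested.

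For the RIP, leaving out 1 library gave 69 to 197 higher and 30 to 82 lower genes at an unadjusted p under 0.05, the fewest higher and the most lower without E247A/Y260A replicate 9. Without the 13 most counted genes these were 90 and 32, with no filter 483 and 280, with at least 10 counts in every library 0 and 0 of 402 genes, and with only the 24 RIP libraries, added after seeing the data, 2 and 4 of 1320. Fitting only the 10 libraries gave 0 and 1 of 835 genes, or 1 and 2 of 907 without replicate 9. Replicate numbers paired some but not all RIP libraries of the constructs by the correlation of same-numbered deviations. It was 0.531, 0.401 and 0.216 for numbers 6, 9 and 10, and 0.0537 and 0.00568 for numbers 7 and 8. Of these, 3 of 5 exceeded 0.1 and 3 of 5 correlated best with their own number. Between wild-type CNOT7 RIP and vector RIP, 5 of 5 correlated best with their own number. The main test of the RIP libraries had no replicate block, so it did not use this pairing. The fit of the 10 libraries with a replicate block called 0 of 835 genes and had 12 higher and 14 lower before adjustment (p under 0.05), against 0 and 1 in the same fit without it. In the inputs, where the numbers did pair, it called 0 with 20 and 17 of 2614, and without the lysate block the ratio had 0 calls, with 117 and 56. Few counts limit most genes, and the spread between libraries those with a mean of 20 counts or more.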
